A study of Mus musculus with 9 samples.

Results

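Of the 54347 genes in the deposited table, 9 were followed from glucose entry to insulin release. They were chosen by name for their roles: glucose entry (Slc2a2), the reversal of glucose phosphorylation (G6pc2), the ATP-sensitive potassium (KATP) channel (Abcc8, Kcnj11), calcium entry (Cacna1d), the incretin receptors (Glp1r, Gipr), granule zinc transport (Slc30a8) and beta cell maturity (Ucn3). All 9 had enough counts to be tested.

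A mouse beta cell takes up glucose through the transporter GLUT2 and commits it to glycolysis by phosphorylation. The ATP that follows closes the KATP channel, the membrane depolarizes, and calcium enters through L-type channels and drives the fusion of insulin granules. Incretin hormones from the gut raise cAMP through their receptors and strengthen this response, while zinc imported into the granule packs insulin into crystals.

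The libraries, 1 for each RNA sample, were 3 of functional tumors (M1 to M3), 3 of non-functional tumors (M4 to M6) and 3 of normal islets (NI1 to NI3). The tumors are pancreatic neuroendocrine tumors (PanNETs) of INS-p25OE mice, which carry tetOp-p25GFP and Ins2-rtTA, so that doxycycline in the drinking water, begun at weaning, turned on the Cdk5 activator p25 fused to GFP in cells where the insulin promoter drives rtTA. Functional tumors came from mice with raised plasma hormone, and the titles of M1, M2 and M3 carry an added word where those of M4, M5 and M6 read only as tumors. Islets are labelled as C57BL/6 and as beta islets, and the study used transgene-negative littermates as normal controls. By the paper's methods, every mouse, with or without the transgenes, was kept on the C57BL/6 background. M2 was from a female and the other 8 libraries were from males, the ages at collection are not given in the sources used here, and the labels do not say whether islets were pooled, so p-values measure the spread between these samples. The tumor and islet samples also held RNA of other cell types, as the marker sums show.

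The 9 libraries held 36468280 to 63637175 counts on genes, and the detection limit used here, 3 counts, came to 0.0425 to 0.119 CPM (counts relative to the library's total, scaled between libraries by edgeR's TMM method). The lowest count of any of the 9 genes was 961 for Slc2a2 in M5 (95% exact Poisson interval 901 to 1024, counting error only), so depth did not limit them. Mitochondrial genes took 32.12% of the counts of M4 and 1.756% to 8.409% of those of the others. Summed acinar markers (12 genes) ran from 0.766 to 245 CPM in tumors, with 9 of 12 at 0 in some tumor, and from 368 to 6805 CPM in islets. Summed alpha, delta and PP cell markers (10 genes) ran from 438 to 3553 CPM in tumors and from 1550 to 21760 CPM in islets, both highest in NI3. Ductal markers (8 genes) summed to 474 to 974 CPM in tumors and 567 to 665 CPM in islets, endothelial markers (10 genes) to 456 to 1491 and 1278 to 1383 CPM, and fibroblast and pericyte markers (10 genes) to 509 to 1836 and 564 to 612 CPM. Macrophage markers (10 genes) summed to 481 to 1328 CPM in tumors and 196 to 452 CPM in islets, lymphoid markers (10 genes) to 20.2 to 120 and 180 to 239 CPM, proliferation markers (10 genes) to 528 to 1255 and 97.7 to 486 CPM, and dissociation response genes (15 genes) to 279 to 465 and 974 to 3422 CPM. The beta cell list (Ins1, Ins2, Iapp, Mafa, Pdx1, Nkx6-1, Slc2a2 and Slc30a8) was detected in every library and summed to 18252 to 116160 CPM in tumors and 121330 to 361540 CPM in islets. The part of these differences in the results was not tested.

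The library labelled NI1 stood with the tumors for Cdk5r1 and with M6 for the 9 genes, but lay above every tumor for some marker sums. Cdk5r1, whose product p35 is the source of p25, was at 292, 201, 401, 169, 149 and 341 CPM in M1 to M6, at 18.4 and 12.5 CPM in NI2 and NI3, and at 280 CPM in the library labelled NI1. Over the 9 genes, the mean absolute difference of log2(CPM + 1) between that library and M6 was 0.114, against 0.471 to NI2 and 0.727 to NI3. NI2 and NI3 themselves were 0.361 apart. Over all tested genes, M6 and the library labelled NI1 were the closest of the 36 pairs of libraries, with a mean absolute difference of 0.167 (NI2 and NI3 0.307). M6 was the nearest library to it for 6 of the 9 genes (Slc2a2, G6pc2, Abcc8, Glp1r, Slc30a8 and Ucn3), and its levels of all 9 lay between 87.9% and 119% of those of M6. In the library labelled NI1, dissociation response genes (974 CPM) and lymphoid markers (180 CPM) summed to more than in any tumor. So did acinar markers (368 CPM, M6 245 CPM) and beta cell markers (121330 CPM, M6 116160 CPM). Each sum was the lowest of the 3 islet libraries, with beta cell markers at 325755 and 361540 CPM in NI2 and NI3. The cause was not tested, and log2 fold changes against islets are given with and without this library.

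**Figure D1:**
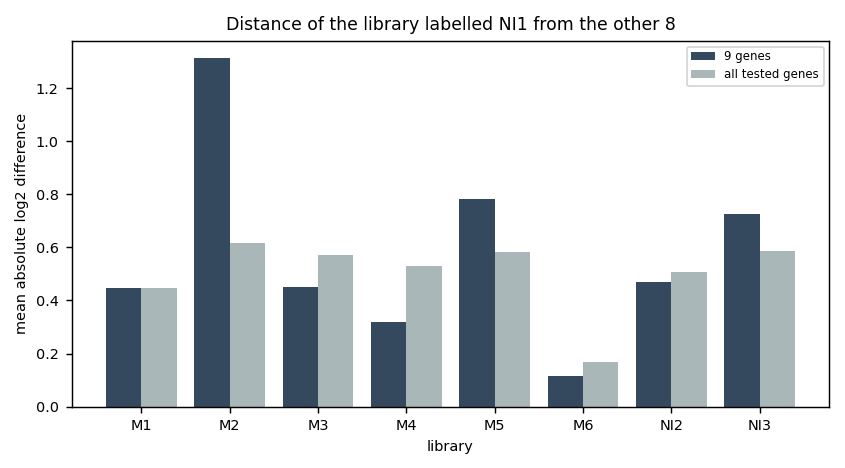
Mean absolute difference of log2(CPM + 1) (y axis) between the library labelled NI1 and each of the other 8 libraries (x axis), over the 9 genes (dark bars) and over all tested genes (light bars). The bars for M6, at 0.114 and 0.167, are the shortest.

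Among the promoters in RefSeq's table for GRCm38.p6, 5 of the 9 genes had an entry (Slc2a2, G6pc2, Ucn3, Cacna1d and Glp1r). The 250 bases before each start were searched on both strands for CATCTG (an E-box of NEUROD1, CAGATG on the other strand), TAATTA (a homeobox site of PDX1 and NKX6-1), TGCTGA (a partial site of MAF factors, TCAGCA on the other strand), TGTTTAC (FOXA), GTTAAT (a partial site of HNF1), TGACGTCA (CRE) and TGACG (a shorter form that lies within it). G6pc2 is shown at both of its listed starts because it was the 1 gene of the 9 that passed a test in tumors, and Ucn3 because it was the 1 other gene with a match. Capitals mark the matches, and each run reads 5′ to 3′ on the strand of the gene:
G6pc2, chr2:69210823-69211072, plus strand: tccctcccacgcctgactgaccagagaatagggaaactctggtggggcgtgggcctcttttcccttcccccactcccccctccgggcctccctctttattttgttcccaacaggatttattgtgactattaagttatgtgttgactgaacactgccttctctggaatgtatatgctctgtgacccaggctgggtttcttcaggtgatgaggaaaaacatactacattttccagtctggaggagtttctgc
G6pc2, chr2:69219699-69219948, plus strand: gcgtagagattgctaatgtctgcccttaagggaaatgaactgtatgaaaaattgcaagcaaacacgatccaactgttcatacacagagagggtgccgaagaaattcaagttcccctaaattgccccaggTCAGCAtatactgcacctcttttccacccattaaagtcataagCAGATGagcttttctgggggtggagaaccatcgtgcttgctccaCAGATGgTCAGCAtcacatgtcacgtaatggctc
Ucn3, chr13:3945350-3945599, minus strand: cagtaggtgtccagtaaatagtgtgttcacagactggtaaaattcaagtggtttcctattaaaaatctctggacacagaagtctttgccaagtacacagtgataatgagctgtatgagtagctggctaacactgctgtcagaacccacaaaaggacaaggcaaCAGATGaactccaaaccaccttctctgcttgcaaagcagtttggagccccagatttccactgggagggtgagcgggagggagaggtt
The second G6pc2 window held the E-box at positions -78 and -34 and the MAF partial site at positions -121 and -27 from the start, and the first window held 0 matches. Ucn3 held the E-box at position -87. The windows of Slc2a2, Cacna1d (2 starts) and Glp1r held 0 matches. For comparison, 14.4% of the 32851 promoters in the table held the E-box, 16.1% the MAF partial site, 4.84% the homeobox site, 3.17% the FOXA motif, 6.43% the HNF1 partial site, 1.55% the CRE and 17.8% its shorter form. The counts are summed per gene, so the starts of G6pc2 cannot be told apart in them, and a match is a description of letters only.

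The first question was whether the genes of glucose sensing and insulin release differed between tumors and normal islets. G6pc2, which turns glucose-6-phosphate back into glucose, fell in tumors when they were set against NI2 and NI3. Slc2a2 spanned 13.9-fold among the tumors. Abcc8 and Cacna1d had the only positive log2 fold changes, 0.61 and 0.39, and those of the other 5 genes lay between -0.47 and -0.14, all without passing the test. Scaling by 8 neuroendocrine genes moved the median of all genes by 0.68 and turned the sign of these 5, of which only Gipr changed side relative to that median. With all 9 libraries under their labels, 0 of the 9 genes passed edgeR's quasi-likelihood test at an adjusted p under 0.05, where 0% of all 15532 tested genes were called higher and 0.258% lower. Without adjustment, 1 of the 9 (G6pc2, lower) had a p under 0.05 by this test. Of all 15532 tested genes, 1655 with such a p were higher and 1419 lower. Without the library labelled NI1, 0 of 9 were called higher and 1 of 9, G6pc2, was called lower, where the test called 5.34% of 15350 genes higher and 3.00% lower. DESeq2 and limma-voom with a weight for each library, on all 9 libraries, called G6pc2 and no other of the 9, where they called 4.92% and 13.4% of tested genes higher and 3.14% and 13.5% lower. The limma-voom weights were 0.511 for the library labelled NI1, 5.07 for NI2 and 1.73 for NI3. That fit therefore rested mostly on NI2 among the islets and counted the library labelled NI1 little. No gene of the 9 had all 6 tumors on one side of all 3 islet libraries, which held for 7.67% of tested genes. Against NI2 and NI3 alone, all 6 tumors lay above for 1 of 9 (Cacna1d, 16.6% of tested genes) and below for 1 of 9 (G6pc2, 16.3% of tested genes). The median log2 fold change of the 9 was -0.19, and -0.32 without the library labelled NI1, beside 0.03 and 0.05 over all tested genes.

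**Figure D2:**
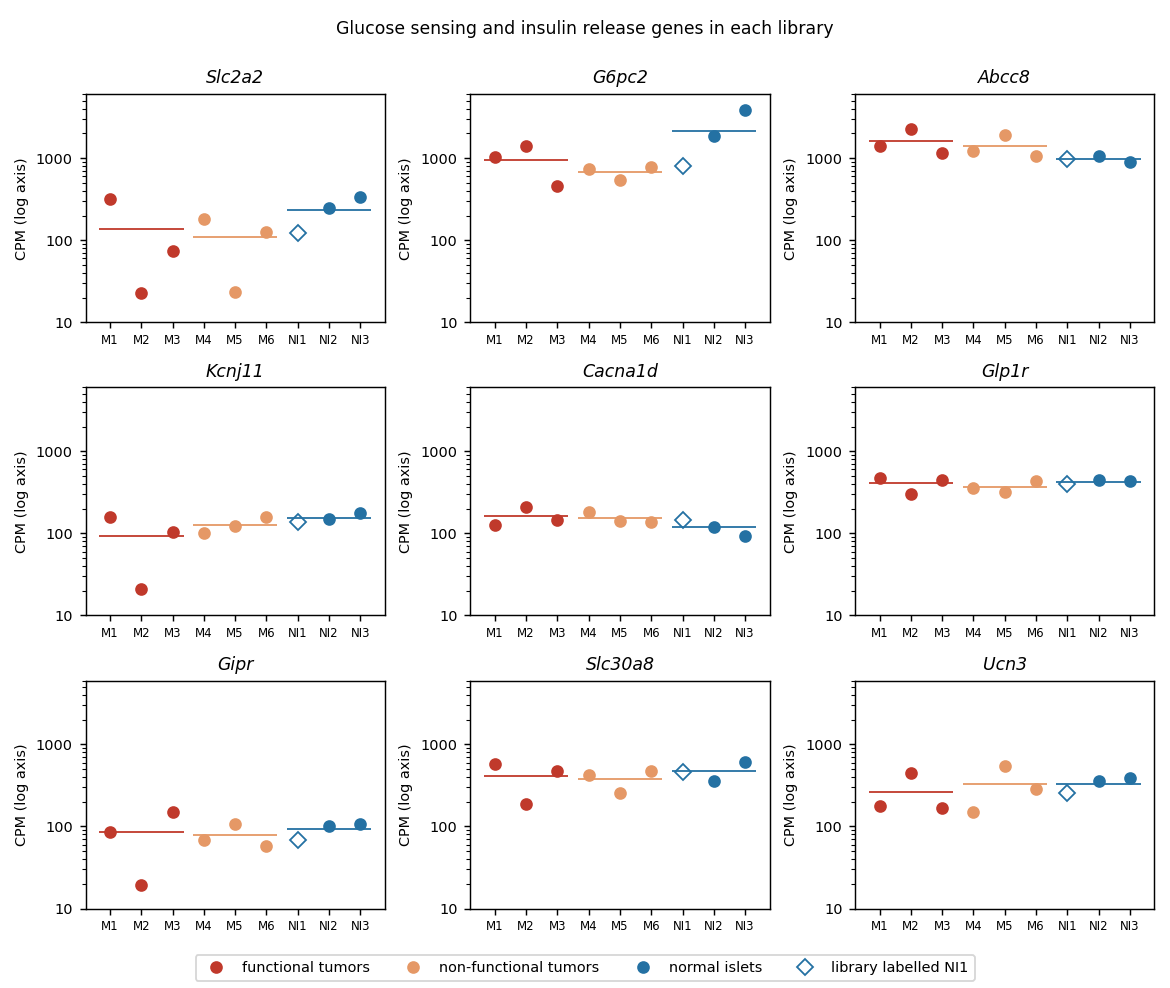
TMM-scaled CPM of the 9 genes in each library (log y axis, the same in all panels; x axis: library). Points are libraries, the open diamond is the library labelled NI1, and lines are the means of the 3 functional tumors, 3 non-functional tumors and 3 islet libraries. G6pc2 is at 1862 and 3809 CPM in NI2 and NI3, above all 6 tumors, and M2 has the lowest point for Slc2a2, Kcnj11, Glp1r, Gipr and Slc30a8.

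Slc2a2 encodes GLUT2, the main glucose transporter of mouse beta cells (ENSMUSG00000027690, chromosome 3 of GRCm38, 28697903 to 28731359). It was at 317, 22.8 and 75.0 CPM in M1, M2 and M3, at 180, 23.6 and 127 CPM in M4, M5 and M6, and at 121, 246 and 333 CPM in NI1, NI2 and NI3. The tumors spanned 13.9-fold, the widest range of the 9 genes. M2 and M5 were the lowest, M1 lay at the level of NI3, and the groups overlapped. On average tumors had 124 ± 112 CPM (SD, n = 6) and islets 233 ± 106 CPM (SD, n = 3). Against islets it gave a log2 fold change of -0.91 (standard error 0.74, edgeR adjusted p = 0.518), and -1.22 without the library labelled NI1 (standard error 0.83, edgeR adjusted p = 0.379). Neither passed the test, and the 95% interval with all libraries ran from -2.55 to 0.73.

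G6pc2 encodes the islet form of the glucose-6-phosphatase catalytic subunit, which turns glucose-6-phosphate back into glucose (ENSMUSG00000005232, chromosome 2, 69211073 to 69227841). It was at 1027, 1395 and 462 CPM in functional tumors, at 729, 541 and 784 CPM in non-functional tumors, and at 805, 1862 and 3809 CPM in NI1, NI2 and NI3. All 6 tumors lay below NI2 and NI3, which themselves differed, while the library labelled NI1 lay inside the tumor range. The mean was 823 ± 343 CPM in tumors (SD, n = 6), 2159 ± 1524 CPM over the 3 islet libraries (SD, n = 3) and 2835 ± 1377 CPM over NI2 and NI3 (SD, n = 2). With all libraries the log2 fold change was -1.39 (standard error 0.47, edgeR adjusted p = 0.174, unadjusted p = 0.0145). Without the library labelled NI1 it was -1.79, a level 0.29 times that of the islets (standard error 0.44, 95% interval -2.77 to -0.80, edgeR adjusted p = 0.0392). With M6 also left out it was -1.77 and the adjusted p of edgeR was 0.0554, so the call was lost. With NI3 left out it was -0.70 (edgeR adjusted p = 0.688), in a fit whose islets were NI1 and NI2, at 805 and 1862 CPM. NI3 was also the library with the highest acinar and alpha, delta and PP cell sums, whose part was not tested. The adjusted p of G6pc2 lay between 0.00045 and 0.688 over 20 alternatives. In bulk RNA, fewer beta cells in a sample and less RNA per beta cell cannot be told apart. Summed beta cell markers were also lower in every tumor than in NI2 and NI3. Most of that sum was insulin, with Ins2 at 232991 of 325755 CPM in NI2. Of the same list, Mafa, Slc30a8 and Slc2a2 had log2 fold changes of 0.15, -0.27 and -1.22 without the library labelled NI1.

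Abcc8 encodes SUR1, the regulatory subunit of the KATP channel and the target of sulfonylureas (ENSMUSG00000040136, chromosome 7, 46104523 to 46180033). It was at 1392, 2268 and 1141 CPM in M1, M2 and M3, at 1235, 1896 and 1049 CPM in M4, M5 and M6, and at 978, 1054 and 907 CPM in NI1, NI2 and NI3. In all, 5 of 6 tumors lay above all islet libraries, and M6 lay between the islet libraries. The log2 fold change was 0.61 with all libraries (standard error 0.31, edgeR adjusted p = 0.307) and 0.61 without the library labelled NI1 (edgeR adjusted p = 0.345). Without that library the 95% interval was -0.26 to 1.47.

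Kcnj11 encodes Kir6.2, the pore of the same channel (ENSMUSG00000096146, chromosome 7, 46093953 to 46100764). It was at 158, 21.2 and 103 CPM in functional tumors, at 102, 123 and 158 CPM in non-functional tumors, and at 139, 148 and 175 CPM in NI1, NI2 and NI3. M2 was the lowest by far, M3, M4 and M5 also lay below every islet library, and M1 and M6 lay within the islet range. The log2 fold change was -0.47 (standard error 0.46, edgeR adjusted p = 0.595), and -0.55 without the library labelled NI1 (edgeR adjusted p = 0.562).

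The genes of both subunits are neighbors on the same strand, 3758 bases apart, yet their levels did not follow each other in every tumor. Per kilobase of annotated exon, the level of Abcc8 was 4.00, 48.6 and 5.03 times that of Kcnj11 in M1, M2 and M3, and 5.49, 7.01 and 3.02 times in M4, M5 and M6. In NI1, NI2 and NI3 the ratio was 3.20, 3.23 and 2.36. M2 stood apart, with 160278 counts of Abcc8 and 1498 counts of Kcnj11. The remaining libraries lay between 2.36 and 7.01. This ratio was chosen after the values were seen, and no test was made of it.

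**Figure D3:**
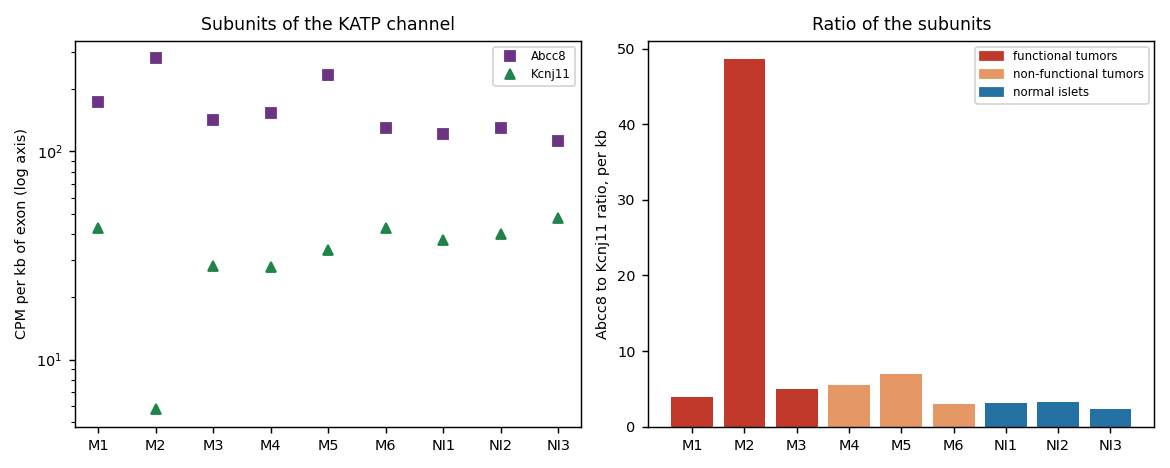
Left, TMM-scaled CPM per kilobase of exon (log y axis) of Abcc8 (squares) and Kcnj11 (triangles) in each library (x axis). Right, the ratio of Abcc8 to Kcnj11 per kilobase, which was 48.6 in M2 and between 2.36 and 7.01 in the other 8 libraries.

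Cacna1d encodes Cav1.3, a pore subunit of L-type calcium channels (ENSMUSG00000015968, chromosome 14, 30039939 to 30491455). It was at 128, 208 and 147 CPM in M1, M2 and M3, at 181, 143 and 138 CPM in M4, M5 and M6, and at 147, 120 and 92.7 CPM in NI1, NI2 and NI3. All 6 tumors lay above NI2 and NI3, and the library labelled NI1 lay inside their range. The log2 fold change was 0.39 (standard error 0.21, edgeR adjusted p = 0.337), and 0.56 without the library labelled NI1 (standard error 0.24, unadjusted p = 0.0446, edgeR adjusted p = 0.177). It did not pass the test either way. Dcp1a overlaps Cacna1d on the other strand and had up to 2054 counts in a library, against at least 3741 for Cacna1d, so reads shared by both are a limit to its values.

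Glp1r, the receptor of glucagon-like peptide 1 (ENSMUSG00000024027, chromosome 17, 30901817 to 30940791), was the steadiest of the 9 genes. It was at 470, 302 and 452 CPM in functional tumors, at 352, 315 and 433 CPM in non-functional tumors, and at 403, 441 and 438 CPM in NI1, NI2 and NI3. The tumors spanned 1.55-fold and lay on both sides of the islets. Against islets its log2 fold change was -0.14 (standard error 0.21, 95% interval -0.60 to 0.32, edgeR adjusted p = 0.735), and -0.19 without the library labelled NI1 (edgeR adjusted p = 0.675).

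Gipr, the receptor of glucose-dependent insulinotropic polypeptide (ENSMUSG00000030406, chromosome 7, 19156061 to 19166127), varied more than Glp1r. It was at 85.2, 19.2 and 150 CPM in M1, M2 and M3, at 68.8, 108 and 57.3 CPM in M4, M5 and M6, and at 68.3, 101 and 108 CPM in NI1, NI2 and NI3. M2 was again the lowest, M3 the highest, and the tumors spanned 7.81-fold. It had a log2 fold change of -0.19 (standard error 0.48, edgeR adjusted p = 0.863), and -0.37 without the library labelled NI1 (edgeR adjusted p = 0.717).

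Slc30a8 encodes ZnT8, which imports zinc into the insulin granule (ENSMUSG00000022315, chromosome 15, 52295553 to 52335798). It was at 580, 188 and 476 CPM in functional tumors, at 428, 253 and 470 CPM in non-functional tumors, and at 463, 362 and 602 CPM in NI1, NI2 and NI3. Only M2 and M5 lay below the islet range. Its log2 fold change was -0.25 (standard error 0.35, edgeR adjusted p = 0.719), and -0.27 without the library labelled NI1 (edgeR adjusted p = 0.717).

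Ucn3 encodes urocortin 3, a peptide released with insulin by mature beta cells and used as a mark of their maturity (ENSMUSG00000044988, chromosome 13, 3940688 to 3945349). It was at 177, 453 and 169 CPM in M1, M2 and M3, at 149, 546 and 287 CPM in M4, M5 and M6, and at 255, 354 and 386 CPM in NI1, NI2 and NI3. M2 and M5, the tumors with the least Slc2a2, had the most Ucn3 and lay above every islet library. The log2 fold change was -0.16 (standard error 0.43, edgeR adjusted p = 0.868), and -0.32 without the library labelled NI1 (edgeR adjusted p = 0.723).

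**Figure D4:**
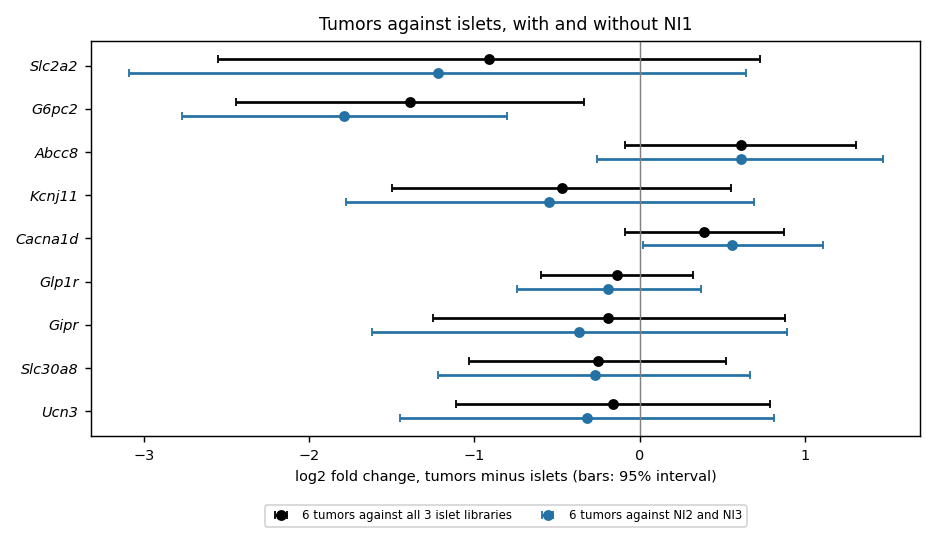
Log2 fold change of each gene in 6 tumors against all 3 islet libraries (black) and against NI2 and NI3 (blue), with 95% intervals as bars (x axis, log2 scale). G6pc2 is at -1.39 and -1.79, and its interval without the library labelled NI1 ends at -0.80.

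On the scale of CPM per kilobase of exon, which allows levels of different genes to be compared, G6pc2 had the highest mean of the 9 in islets (1094 ± 772, SD, n = 3) and in tumors (417 ± 174, SD, n = 6). It was the highest in each islet library and in 4 of the 6 tumors, while Slc30a8 was above it in M3 (242 against 234) and Ucn3 in M5 (370 against 274). Slc30a8 (203 ± 75.4), Ucn3 (201 ± 113) and Abcc8 (185 ± 59.6) followed in tumors, and these 3 levels differed by less than their spread. Glp1r came next at 66.7 ± 12.6, apart from its neighbors. Kcnj11 (30.2 ± 13.7), Gipr (23.4 ± 12.9), Slc2a2 (21.6 ± 19.5) and Cacna1d (12.5 ± 2.42) closed the order, each differing from the next by less than the spread. In islets Slc30a8 (241 ± 61.0) and Ucn3 (224 ± 46.4) overlapped, Abcc8 (121 ± 9.09) and Glp1r (73.6 ± 3.69) stood apart, and Slc2a2 (40.5 ± 18.5) overlapped with both Kcnj11 (41.9 ± 5.09) and Gipr (26.6 ± 6.12), which did not overlap with each other. Cacna1d (9.52 ± 2.17) was last and apart. Slc2a2 was below Gipr in tumors and above it in islets, by less than the spread in both.

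The second question was whether the genes differed between functional and non-functional tumors, which the study separates by plasma hormone. None of the 9 passed. In the fit of all 3 groups, edgeR called 0 of the 9 genes, and it called 0% of all tested genes in either direction. Without adjustment, 732 of all genes with a p under 0.05 were higher in functional tumors and 866 lower, and 0 of the 9 were among them. DESeq2 called 111 of all genes and 0 of the 9. The 3 functional tumors did not lie apart from the 3 non-functional tumors for any of the 9 genes, which they did for 15.0% of tested genes. G6pc2 was at 962 ± 470 CPM in functional against 685 ± 128 CPM in non-functional tumors (SD, n = 3 each, log2 fold change 0.49, 95% interval -0.81 to 1.79, edgeR adjusted p = 0.791), and without M2 its log2 fold change was 0.12. Kcnj11 was at 94.1 ± 68.8 against 128 ± 28.1 CPM (log2 fold change -0.44, 95% interval -1.68 to 0.80, edgeR adjusted p = 0.805). Glp1r had the narrowest interval, from -0.39 to 0.70 around 0.15. For Slc2a2 the interval ran from -1.75 to 2.40, an interval that holds large differences in either direction.

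Tumors of 1 group differed widely among themselves. M2, which was functional, and M5, which was non-functional, took the 2 highest places among the 6 tumors for Abcc8 and Ucn3 and the 2 lowest for Slc2a2, Glp1r and Slc30a8. That made 5 genes with both tumors at the same end, where every other pair of tumors had at most 2. M2 and M5 parted for Kcnj11 and Gipr, at 21.2 and 19.2 CPM in M2 but 123 and 108 CPM in M5, and for G6pc2, at 1395 and 541 CPM. M1, also functional, had the most Slc2a2, Kcnj11, Glp1r and Slc30a8 of all tumors. Over the 9 genes M1 and M2 were 1.569 apart in mean absolute log2(CPM + 1). M2 was the only library from a female, so its sex and its tumor cannot be told apart. These pairs were looked for after the values were seen.

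The genes that act beside the 9 were read from lists. In each of the following lists edgeR called 0 genes with all 9 libraries, and the counts given are those without the library labelled NI1, a fit that called 5.34% of all tested genes higher and 3.00% lower. For the genes called, the log2 fold change with all 9 libraries is given beside it, and its edgeR adjusted p lay between 0.0726 and 0.599. Of 24 genes of glucose metabolism and coupling factors, 1 rose and 1 fell. Slc25a10, the mitochondrial dicarboxylate carrier, rose by 1.57 on the log2 scale (1.14 with all libraries, edgeR adjusted p = 0.0105 without the library labelled NI1), and the glycolytic enzyme gene Aldoa had a log2 fold change of -1.25 (-0.97 with all libraries, edgeR adjusted p = 0.0153 without that library). Limma-voom with library weights called 7 of the 24 lower on all libraries, and DESeq2 without the library labelled NI1 called 4, where they called 13.5% and 6.53% of all tested genes lower. The median of this list was -0.27, beside 0.05 over all tested genes.

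Of 12 genes that beta cells normally keep low, known as disallowed genes, 1 rose. It was Maf, a transcription factor also found in macrophages, at 11.2 to 65.8 CPM in tumors, 12.1 CPM in the library labelled NI1, and 5.34 and 4.98 CPM in NI2 and NI3 (log2 fold change 2.85, edgeR adjusted p = 0.0417, and 2.32 with all libraries). In the same fit 10 of 10 macrophage markers had log2 fold changes above 0, with a median of 1.83, beside 52.9% of all tested genes, and Cd68, Adgre1 and Mrc1 were called. The part of macrophages in the level of Maf was not tested. On all 9 libraries DESeq2 and limma-voom with library weights each called Maf higher and 1 other gene of the 12 lower. They called 4.92% and 13.4% of all tested genes higher, and 3.14% and 13.5% lower. DESeq2 without the library labelled NI1 made the same calls in this list, where it called 1890 of 15350 genes higher and 1003 lower. Ldha, lactate dehydrogenase A, was at 58.4 ± 28.6 CPM in tumors and 32.8 ± 2.01 CPM in NI2 and NI3 (log2 fold change 0.83, edgeR adjusted p = 0.322, and 0.89 with all libraries). Hk1, a hexokinase of high affinity (-0.23, and -0.09 with all libraries), Slc16a1, the lactate and pyruvate carrier MCT1 (-0.67 and -0.62), and Slc2a1, the transporter GLUT1 (0.28 and 0.34), did not pass either, with edgeR adjusted p from 0.435 to 0.740 without the library labelled NI1. In M2, the tumor with the least Slc2a2 (22.8 CPM), Slc2a1 was at 32.6 CPM, its highest level. M5 had nearly as little Slc2a2 (23.6 CPM), but its Slc2a1 was at 11.1 CPM, below every islet library.

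Of 20 other ion channel genes, 3 rose and 0 fell. They were Abcc9 and Kcnj8, which encode SUR2 and Kir6.1, the KATP channel subunits of muscle and vessels, and Kcnq1, a voltage-gated potassium channel. Abcc9 was at 29.9 to 55.3 CPM in the 6 tumors, 33.3 CPM in the library labelled NI1, and 11.7 and 12.0 CPM in NI2 and NI3 (log2 fold change 1.72, edgeR adjusted p = 0.0111, and 1.04 with all libraries). Kcnj8 was at 4.15 to 21.0 CPM in tumors, 11.1 CPM in the library labelled NI1, and 2.29 and 2.53 CPM in NI2 and NI3 (2.38, edgeR adjusted p = 0.0469, and 1.24 with all libraries). The 6 tumors lay above NI2 and NI3 for both genes, and the library labelled NI1 lay within their range. In the same fit 10 of 10 fibroblast and pericyte markers had log2 fold changes above 0, with a median of 1.02, beside 52.9% of all tested genes, and Pdgfrb was called. These markers summed to 509 CPM in M6, below NI2 (612 CPM) and NI3 (564 CPM), and to 766 CPM or more in every other tumor. M6 had Abcc9 at 33.1 CPM and Kcnj8 at 14.3 CPM. The part of fibroblasts and pericytes in the levels of both genes was not tested. Kcnq1 was at 12.5 to 41.1 CPM in tumors, 36.2 CPM in the library labelled NI1, and 3.12 and 4.83 CPM in NI2 and NI3 (2.65, edgeR adjusted p = 0.0343). With all libraries its log2 fold change was 0.76 (edgeR adjusted p = 0.599), so the edgeR call rested on leaving out the library labelled NI1. On all 9 libraries limma-voom with library weights called Abcc9, Kcnj8 and Kcnq1 higher and 3 of the 20 lower, with a weight of 0.511 for the library labelled NI1 and 5.07 for NI2. It called 13.4% of all tested genes higher and 13.5% lower. DESeq2 on all 9 libraries called 2 other genes of the list higher and 0 lower (4.92% and 3.14% of all tested genes). Cacna1c, which encodes Cav1.2, the other L-type pore of beta cells, was at 64.9 ± 26.0 CPM in tumors and 36 ± 3.81 CPM in NI2 and NI3 (0.85, edgeR adjusted p = 0.205, and 0.79 with all libraries). It was at 60.2, 102 and 90.9 CPM in functional and 44.3, 54.3 and 37.3 CPM in non-functional tumors. Functional against non-functional tumors gave a log2 fold change of 0.90 (edgeR unadjusted p = 0.00424, adjusted p = 0.455). The groups did not overlap, as for 15.0% of tested genes. Trpm5, a calcium-activated cation channel, had a log2 fold change of -1.56 (edgeR adjusted p = 0.0906, and -1.16 with all libraries), with 74.8 CPM in NI3 and 18.2 CPM in NI2, and was at 0.03 without NI3. The call of Kcnj8 was lost when M6 was left out with the library labelled NI1, and those of Abcc9 and Kcnq1 were kept, where 5.89% of all tested genes were called higher and 3.43% lower.

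Of 20 tested genes of other receptors and cAMP signaling, 0 rose and 1 fell. It was Chrm3, the muscarinic M3 receptor through which acetylcholine acts on beta cells, at 9.09 to 23.6 CPM in tumors, 13.6 CPM in the library labelled NI1, and 43.5 and 46.3 CPM in NI2 and NI3 (-1.42, edgeR adjusted p = 0.0431, and -1.04 with all libraries). With M6 and the library labelled NI1 both left out this call was lost (edgeR adjusted p = 0.056), and another gene of the list was called lower, Gpr119, a lipid receptor named here after its values were seen. Ffar1, the fatty acid receptor GPR40, was at 235 ± 88.0 CPM in tumors and 133 ± 7.58 CPM in NI2 and NI3 (0.82, edgeR adjusted p = 0.204, and 0.67 with all libraries). Rapgef4, which encodes the cAMP sensor EPAC2, was at 288 ± 75.4 and 335 ± 7.53 CPM (-0.22, edgeR adjusted p = 0.660, and -0.26 with all libraries). On all 9 libraries limma-voom with library weights called 2 of the 20 higher and 4 lower (13.4% and 13.5% of all tested genes).

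Of 18 granule fusion genes, 0 rose and 1 fell. Syt5, a synaptotagmin, was at 1.22 to 7.0 CPM in tumors, 7.78 CPM in the library labelled NI1, and 52.6 and 46.1 CPM in NI2 and NI3 (-3.59, edgeR adjusted p = 0.00448, and -3.11 with all libraries). Every tumor lay below every islet library. Other tools gave other counts for this list. Limma-voom with library weights on all 9 libraries called 3 of the 18 higher and 2 lower (13.4% and 13.5% of all tested genes). DESeq2 without the library labelled NI1 also called 3 higher and 2 lower, where it called 1890 and 1003 of 15350 genes. On all 9 libraries DESeq2 called 1 higher and 1 lower (4.92% and 3.14% of all tested genes). Of 14 genes of zinc handling and insulin processing, 0 rose and 1 fell, Pam, the enzyme that amidates peptide hormones (-1.82, edgeR adjusted p = 0.0214, and -1.53 with all libraries). This count depended on the tool: on all 9 libraries DESeq2 called 6 of the 14 lower and limma-voom with library weights 8, where they called 3.14% and 13.5% of all tested genes lower, and DESeq2 without the library labelled NI1 called 7 (6.53% of all tested genes). The 6 were Ins1, Ins2, Iapp, Pam, Pcsk2 and Cpe, of which Pcsk2 and Cpe, enzymes of prohormone processing, are named after their values were seen. Ins1, Ins2 and Iapp, the genes for both insulins and islet amyloid polypeptide, had log2 fold changes of -2.26, -2.45 and -1.74 by edgeR (adjusted p = 0.0923, 0.181 and 0.0969), and of -1.89, -2.11 and -1.33 with all libraries. Pcsk1, a convertase of proinsulin, had one of -0.38 (edgeR adjusted p = 0.564, and -0.36 with all libraries). Ins2 ranged from 7313 CPM in M3 to 88719 CPM in M6, and was at 88895, 232991 and 248686 CPM in NI1, NI2 and NI3. The median of this list was -0.78.

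Of 18 tested genes of beta cell maturity and identity, a list that holds Slc2a2 and Ucn3, 1 rose and 0 fell. It was Nnat, neuronatin, an imprinted gene of the secretory pathway, at 94.7 to 345 CPM in tumors, 75.6 CPM in the library labelled NI1, and 4.39 and 15.7 CPM in NI2 and NI3 (4.18, edgeR adjusted p = 0.0106, and 2.52 with all libraries). Mafa, a transcription factor of mature beta cells, was at 213 ± 71.5 CPM in tumors and 192 ± 34.9 CPM in NI2 and NI3 (0.15, edgeR adjusted p = 0.838, and 0.06 with all libraries). Of 12 tested genes of beta cell immaturity, 1 rose and 1 fell. Npy, neuropeptide Y, rose by 5.94 (edgeR adjusted p = 0.0117, and 3.55 with all libraries), while Gc, the vitamin D binding protein, had a log2 fold change of -3.33 (edgeR adjusted p = 0.0225, and -2.78 with all libraries). In the same fit 0 of 7 tested alpha, delta and PP cell markers had log2 fold changes above 0, with a median of -1.56. Gc was at 761 and 370 CPM in NI2 and NI3, where those markers summed to 4291 and 21760 CPM. Their part in the level of Gc was not tested. Among the 8 neuroendocrine reference genes 0 rose and 1 fell, Scg5, a chaperone of the convertase PCSK2 (-1.88, edgeR adjusted p = 0.00632, and -1.52 with all libraries), with a list median of -0.87. On all 9 libraries limma-voom with library weights called 6 of these 8 lower, and DESeq2 called 2 (13.5% and 3.14% of all tested genes).

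As a description, genes outside the 9 were ranked by the Pearson correlation of their log2(CPM + 1) over the 9 libraries with the mean of the 9 z-scored genes. That mean was lowest in M2 (-0.55) and highest in NI3 (0.43) and M1 (0.29). Among the 8 most alike, 7 were Gm47163, Pex2, Zfp324, Hspa2, Irgq, Zscan22 and Wdpcp, with r from 0.952 to 0.979. Pex2, a peroxisome assembly factor, was at 50.6, 25.5 and 37.0 CPM in M1, M2 and M3, at 34.3, 36.5 and 42.5 CPM in M4, M5 and M6, and at 43.4, 60.4 and 63.5 CPM in NI1, NI2 and NI3. The points share the scaling of their libraries.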

How the data were processed

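RNA from 6 tumors and 3 islet samples was sequenced, 1 library each. By the paper's methods and processing notes, single-end reads were trimmed with Trimmomatic 0.38 and quantified with Salmon 1.4.0 against mm10. The authors deposited estimated counts per gene as whole numbers, not scaled between libraries, although the table is called TPM. The step from transcripts to genes is not given in the sources used here. Symbols and GRCm38 coordinates came from GENCODE (54094 of 54347 identifiers, 0.0121% of counts unmatched).

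A gene was tested if it reached 1 CPM in 3 or more libraries (15532 genes). Tests were quasi-likelihood tests (edgeR 4.0.16, R 4.3.3, TMM scaling) of 6 tumors against 3 islet libraries and, with all 3 groups in the fit, of functional against non-functional tumors. P-values are two-sided, adjusted by Benjamini-Hochberg over all tested genes, with calls made under 0.05. A standard error is the log2 fold change divided by the square root of F, and 95% intervals use edgeR's moderated degrees of freedom. Levels per length divide CPM by the merged exon length. The fits were tested on simulated counts, where a larger share of the calls of DESeq2 than of edgeR or limma-voom was false. Alternatives were DESeq2 1.42.0, voom from limma 3.58.1 with library weights, other filters and scalings, a replicate block, and each library left out.

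The 9 genes and the lists were chosen with earlier results of these data known. The genes named were the 9, up to 4 called genes of each list, a fixed set of pathway genes (13 reported), the nearest in pattern (7 of 8 reported), and Cdk5r1. A few genes are not reported here and were left out of the lists and sums.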

Additional observations from a re-analysis of the deposited data

Results flagged for a closer look

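Among 36 measures (the levels of the named genes outside the nearest in pattern), each read over the 6 tumors, 3 had a single tumor whose gap to the next was a large part of the whole range (Dixon's test at the 95% level). Chance gives about 1 in 20, here 1.8. Nnat was at 345 CPM in M5, where the next highest tumor was at 186 CPM. Npy was at 257 CPM in M5, next to 101 CPM. Slc16a1 was at 3.84 CPM in M4, next to 1.97 CPM. None of the 9 genes taken alone had such a tumor, Slc2a2 and Kcnj11 included. The gaps were taken in CPM without logs, where a single low tumor stands out less than on a log scale. That applies to M2 for Kcnj11, at 21.2 CPM where the next lowest tumor was at 102 CPM.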

How the results depend on the processing

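In tumors against islets, 0 of the 9 genes were called higher under every alternative run. The number called lower was 1 (G6pc2) with DESeq2, with limma-voom with library weights and with DESeq2 without the library labelled NI1, ran from 0 to 1 when each library was left out in turn, the 1 being G6pc2 without the library labelled NI1, and was 0 under the other alternatives. DESeq2 without that library, the fit with M6 and NI1 left out and the unblocked fit of M1 to M3 and NI1 to NI3 were chosen after seeing the data. Between functional and non-functional tumors the numbers were 0 throughout. Scaling by 8 neuroendocrine genes moved the median of all genes by 0.68, to 0.71, and turned the sign of Kcnj11 (0.21), Glp1r (0.57), Gipr (0.75), Slc30a8 (0.42), Ucn3 (0.62), Hk1 (0.68), Slc16a1 (0.06), Pcsk1 (0.25) and Rapgef4 (0.41). Relative to that median, the 9 genes were at -1.03 (Slc2a2), -1.30 (G6pc2), 0.57 (Abcc8), -0.50 (Kcnj11), 0.29 (Cacna1d), -0.14 (Glp1r), 0.04 (Gipr), -0.29 (Slc30a8) and -0.09 (Ucn3), so only Gipr changed side. Limma-voom with library weights gave 0.03 for Slc30a8 in tumors against islets and -0.16 for Cacna1d in functional against non-functional tumors.

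With each library left out in turn, some log2 fold changes changed sign. In tumors against islets they ran for Gipr from -0.45 to 0.02, Hk1 from -0.30 to 0.06, Mafa from -0.07 to 0.22 and Trpm5, at -1.16 with all libraries, from -1.56 to 0.03 (without NI3). In functional against non-functional tumors they ran for Slc2a2 from -1.17 to 0.89, G6pc2 from 0.12 (without M2) to 0.82, which kept its sign, Abcc8 from -0.14 to 0.45, Kcnj11 from -1.04 to 0.03, Cacna1d from -0.17 to 0.20, Gipr from -0.58 to 0.59, Slc30a8 from -0.21 to 0.46 and Ucn3 from -0.92 to 0.27.

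The labels do not say whether same-numbered tumors and islets were paired. Their deviations from the group means correlated with r = -0.0516, 0.03 and -0.159, and those of differently numbered ones with r from -0.115 to 0.177. With 3 libraries a group, this could not show whether the samples were paired. With the replicate number as a block over M1 to M3 and NI1 to NI3, 0 of the 9 genes were called, the log2 fold change of G6pc2 was -0.98 (-1.17 without the block), Mafa was at -0.37, and edgeR called 10 genes higher and 24 lower, against 56 and 107 without the block, where Mafa was at -0.27. In all, 169 of 180 values of the 9 genes against islets and 122 of 135 between tumor groups kept their direction and side of the threshold. Of the counts of called genes in the other lists, 289 stayed within 1.5 times that with all 9 libraries, which was 0 in each, and 71 did not, most of them with DESeq2, limma-voom or without the library labelled NI1. With 3 libraries a group, wide intervals limit what could be seen. The cause of the changes was not tested.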
